A study of Canis lupus familiaris with 8 samples.

Results

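Interferon-stimulated genes were described in circulating TCRαβ+ T cells of healthy dogs for which no treatment is listed. By the methods of the study the dogs were routinely vaccinated against viral and bacterial disease, without a stated time between vaccination and sampling. A list of 39 such genes was taken, and 31 of them were found by symbol in the gene list of the libraries. OASL was annotated under 2 identifiers, ENSCAFG00000010511 and ENSCAFG00000024447, so that the 31 genes filled 32 of 20257 rows. MX1, IFIH1, IRF7, IRF9, HERC5, USP18, CMPK2 and LGALS3BP were not found under these names and are not analysed here. The cells came from 4 Beagles. Dog 1 was female and aged 5 years, and the others were male, aged 7 (dogs 2 and 3) and 9 years (dog 4). Live single TCRαβ+ lymphocytes had been sorted from mononuclear cells and cryopreserved before 5' single cell sequencing, with 1 library per dog, so that the dog was the replicate (n = 4) and age and sex could not be told apart from the dog.

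Interferons bind receptors that signal through JAK kinases to STAT transcription factors. Type I interferons mainly act through a complex that holds STAT2 and IRF9, and IFN-γ induces IRF1. The target genes encode sensors of viral RNA (DDX58, DHX58), enzymes activated by double-stranded RNA (the OAS family, EIF2AK2), inhibitors of viral replication (MX2, ISG20, RSAD2) and the ubiquitin-like modifier ISG15 with its conjugating enzyme UBE2L6. Many of them are transcribed at a low level in the absence of infection.

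Levels are given as UMIs (counted molecules) in 1e6 UMIs of the dog's cells in a class (CPM), and n is 4 dogs throughout. After filtering on depth and mitochondrial share, 31909 cells were kept, with 7096, 8454, 8109 and 8250 from dogs 1 to 4 and medians of 3599, 3931, 3795 and 3847 UMIs. At this depth a cell without a UMI is not a cell without the transcript. Between 81 and 113 cell barcodes were shared by any pair of dogs, 1.12% to 1.34% of the cells of the first dog of a pair. T cell markers (CD3E, CD3D, CD3G, CD2, CD5, LCK) summed to 3164 to 3509 CPM. Of the B cell markers, CD22 and PAX5 were at 0 and all but CD79A summed to 4.22 to 6.14 CPM. Of the monocyte markers, VCAN, CSF1R, S100A12 and FCGR1A were at 0 and all but S100A8 summed to 0.599 to 0.994 CPM. The rows named CD79A and S100A8 were abundant, so that the whole lists reached 9066 to 10281 and 1394 to 2770 CPM. Whether these 2 rows hold the reads of the genes they are named for was not tested. The proliferation genes MKI67 and TOP2A summed to 28.3 to 44.1 CPM, and 6901, 8100, 7928 and 8009 of the kept cells of dogs 1 to 4 had no UMI of either.

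The members made up 17.6, 20.5, 16.7 and 24.2 of every 10000 UMIs in dogs 1 to 4 (19.7 ± 3.39, SD). Most of this came from few genes, as the plot of levels by dog shows. SP110, a nuclear body protein, was the most abundant, with 496, 420, 401 and 400 CPM in dogs 1 to 4 (429 ± 45.5), and gave 21.7% of the members' UMIs. IRF1, a transcription factor that is also induced by IFN-γ, followed with 262, 274, 224 and 577 CPM. Dog 4 stood above the others for IRF1, and the mean of 334 ± 163 CPM did not differ from that of SP110 beyond the spread between dogs.

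ISG20, an RNA exonuclease, was found at 90.0, 177, 141 and 211 CPM. DTX3L, which pairs with PARP9 in a ubiquitin ligase complex, had 147, 155, 145 and 124 CPM, and UBE2L6 had 111, 103, 103 and 160 CPM. The ranges of these 3 genes overlapped. Behind them, SAMD9L (67.2 ± 16.3 CPM), TRIM25, a ubiquitin ligase of the RIG-I pathway (61.1 ± 9.93 CPM), and MX2, a dynamin-like GTPase that restricts viruses (60.9 ± 18.0 CPM), were indistinguishable by their spread. The members from STAT2 down to OAS1 ranged from 60.3 to 20.7 CPM, and those from DHX58 to RTP4 from 14.4 to 5.32 CPM.

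Several genes known as strongly interferon-induced were nearly absent. RSAD2 (viperin) had 6, 4, 0 and 3 UMIs in whole libraries. For dog 3, a count of 0 allows a level of up to 0.0932 CPM (3 counts, which covers counting error only). IFI6 had 4, 8, 4 and 3 UMIs, and OAS2 and EIF2AK2 (PKR) averaged 1.70 and 1.16 CPM. ISG15 had 6.21, 17.1, 3.42 and 8.49 CPM. The 5' end of a transcript must be annotated for its reads to be counted in such libraries, so that the order of genes by UMIs is not an order by amounts of RNA.

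**Figure D1:**
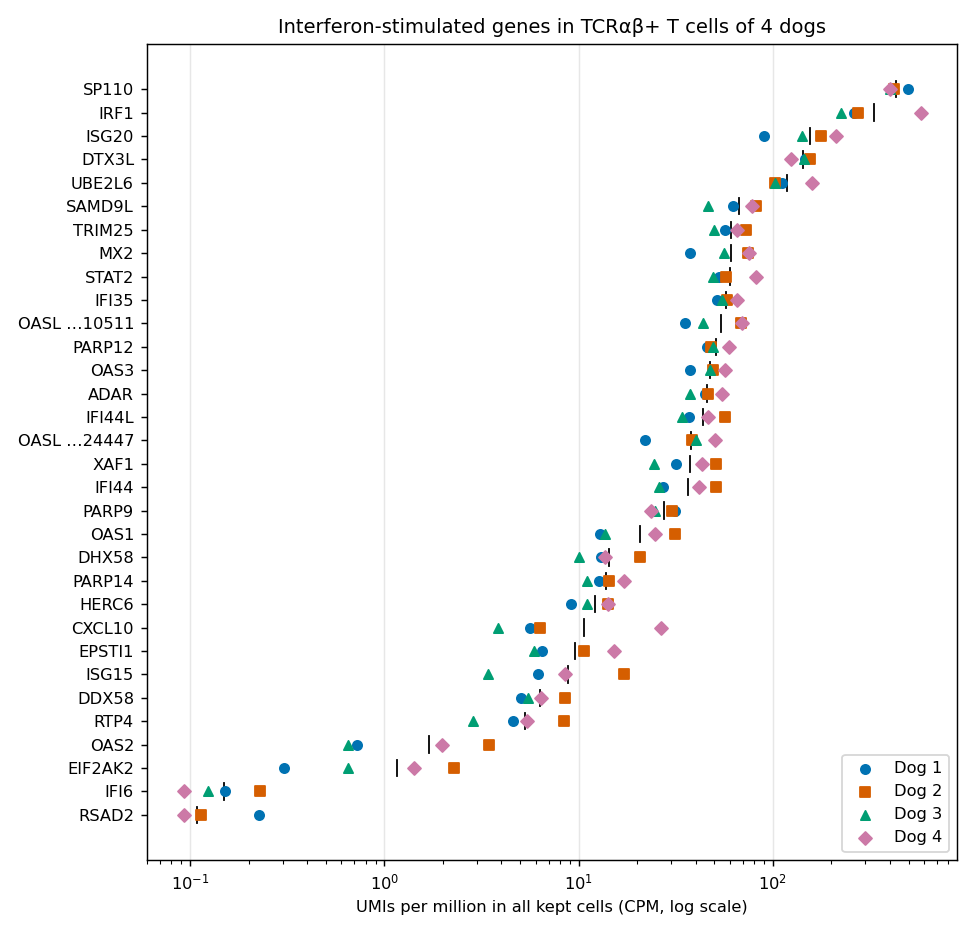
Level of each member in all kept cells (CPM, log scale), 1 symbol per dog and a black bar at the mean of 4 dogs. SP110 and IRF1 lead with means of 429 and 334 CPM, and IFI6 and RSAD2 lie near 0.1 CPM; dog 3 is not drawn for RSAD2, where it had 0 UMIs.

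The members varied more between dogs than most genes did. Among the 24 members with at least 10 CPM, the median fold between the highest and the lowest dog was 1.67, against 1.21 over all 7074 such genes. More than 2-fold between dogs was reached by 8 of these members (33.3%) and by 4.62% of all such genes. Dog 2 was the highest for 15 and dog 4 for 14 of the 31 rows with at least 3 UMIs in every dog, whereas dog 3 was the lowest for 15 and dog 1 for 11. The order was not the same for each gene: SP110 and PARP9 were highest in dog 1, where OASL, MX2, ISG20, OAS1 and OAS3 were lowest. With 1 library per dog, library and dog cannot be told apart.

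Co-variation over cells was measured within each dog. UMIs were turned into residuals from the level expected for the cell's total UMIs and its CD4 or CD8A class, and Pearson's r of the residuals was taken over the cells of a dog for each pair of the 26 members detected in at least 1% of the cells of every dog. Since all cells of a dog share a library, r is given as a description without a p-value. Of 325 member pairs, 54 (16.6%) had r over 0.05 in every dog, against 0.204% of all 38364420 pairs of the 8760 genes detected as widely.

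The 54 pairs linked 14 members into 1 group: MX2, OASL (ENSCAFG00000010511), OAS1, IFI44, IFI44L, XAF1, ISG20, SAMD9L, DHX58, UBE2L6, RTP4, TRIM25, STAT2 and OAS3. The strongest was MX2 with OAS1, an RNA-activated synthase of 2',5'-oligoadenylate, with r of 0.250, 0.276, 0.0996 and 0.202 in dogs 1 to 4. ISG20 with OASL, an OAS-like protein, gave 0.215, 0.226, 0.145 and 0.186. IFI44 was linked with OAS1 (0.221, 0.213, 0.0752 and 0.192), and XAF1, an antagonist of the apoptosis inhibitor XIAP, with IFI44 (0.189, 0.221, 0.0942 and 0.176). IFI44 with IFI44L gave 0.167, 0.225, 0.101 and 0.147. In these pairs r was lowest in dog 3, and without that dog 87 pairs passed. Since r must pass in every dog, leaving out a dog can only keep or add pairs.

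The other 12 members tested had no such pair. They include the most abundant, SP110, IRF1 and DTX3L, as well as PARP9, PARP12, PARP14, ADAR, IFI35, HERC6, EPSTI1, DDX58 and the OASL row ENSCAFG00000024447. The residuals of sparse genes are noisy, and a pair without r over 0.05 is not shown to be unrelated. Each member was also correlated with the summed residuals of the other members. Among these 12, the mean r over dogs ran from 0.0250 (SP110) and 0.0454 (DTX3L) to 0.135 (HERC6) and 0.144 (DDX58). STAT2, of the linked group, had 0.137, so that the 12 are not all apart from the group by this measure. After thinning each cell to 2000 UMIs, 12 pairs were left, all among the 54. In CD4+ cells with and without a CCR7 UMI taken alone, 38 and 58 pairs passed, and 31 and 41 of these were among the 54. In CD8A+ cells alone 8 pairs passed, and only 6 of these were among the 54. All 54 pairs kept a mean r above 0 there, which is a much weaker criterion. Without cells with an MKI67 or TOP2A UMI, 44 pairs passed. The share over all pairs of genes was taken in the main setting only, so that these counts are a description.

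**Figure D2:**
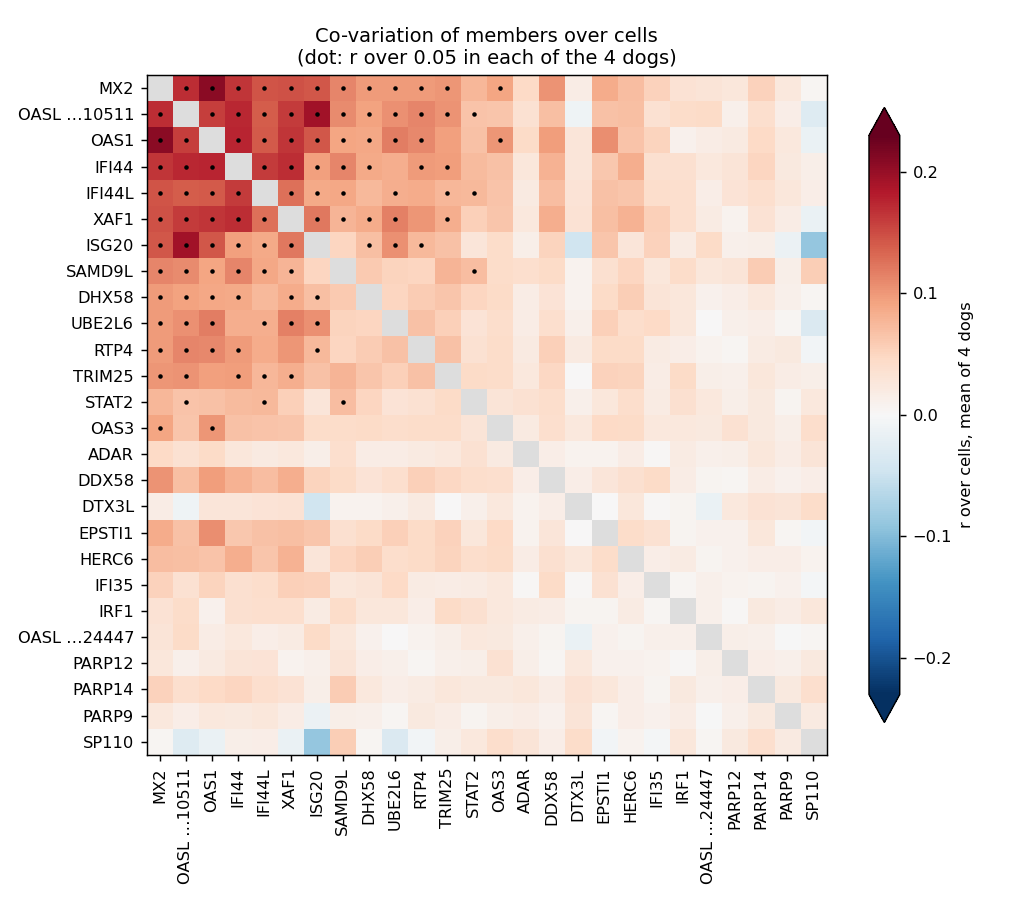
Pearson's r of residual UMIs over cells for each pair of 26 members (rows and columns), as the mean of 4 dogs, with a dot where r was over 0.05 in each dog. The 14 members of the linked group form the red block at the upper left, and SP110, IRF1 and DTX3L lie outside it.

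Genes outside the list were ranked by their correlation over cells with the members' summed residual. LGALS9, which encodes galectin-9, came first with r of 0.293, 0.395, 0.196 and 0.289 in dogs 1 to 4. Among the 15 highest were the interferon-stimulated genes RNF213 (mean r 0.221) and BST2 (tetherin, 0.216), TAP1 (0.186) and TAPBP (0.168) of the peptide-loading complex of MHC class I, ZNFX1 (0.159) and PML (0.154). The rest were genes of adhesion and the cytoskeleton, ITGB1 (0.229), LCP1 (0.192), AHNAK (0.167) and IQGAP1 (0.153), the proteoglycan SRGN (0.155), and 3 rows known by an identifier only, ENSCAFG00000000502, ENSCAFG00000016252 and ENSCAFG00000006485 (0.197, 0.185 and 0.183).

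The number of members seen in a single cell was counted after thinning to 2000 UMIs, which left 6076, 7125, 6999 and 6960 cells. The mean was 2.68, 3.17, 2.68 and 3.56 members per cell in dogs 1 to 4. A tail of cells carried many more: 8 or more members were found in 61, 213, 51 and 212 cells (0.729% to 3.05%), and up to 26, 18, 19 and 22 members in the richest cell. The number of cells fell with each further member from 3 to 10 in every dog, and beyond 12 members dogs 1 and 3 had few cells, spread out with gaps between them. Since the cells were picked by the members' own counts, other genes are given for them as a description only.

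LGALS9 had a UMI in 42.6%, 46.5%, 35.3% and 40.1% of the cells with 8 or more members and in 10.3%, 18.4%, 14.7% and 18.2% of the others. IFIT1, another interferon-stimulated gene, was seen in 3.92% to 12.7% against 0.691% to 2.20%, more often in each dog. Among the cells with 8 or more members, 3 cells are 4.92% in dog 1 and 5.88% in dog 3. Shares below these, such as that of IFIT1 in dog 3, rest on fewer than 3 cells, and their direction is not secure. MKI67 was seen in 6.56%, 10.3%, 1.96% and 6.13% against 1.43%, 1.98%, 0.950% and 1.29%, more often in each dog. In dog 3 its share lay below that of 3 cells. Most of these cells had no MKI67 UMI, which at this depth does not show that the transcript was absent. CCR7 was less frequent in the cells with many members in each dog, with 24.6%, 10.8%, 17.6% and 4.72% against 27.3%, 21.2%, 21.1% and 11.5%. In dogs 1 and 3, with only 61 and 51 such cells, the shares lay close together, and their direction is not secure. The genes PDCD1, FOXP3, GZMB and CD8A did not have 1 direction in all dogs. PDCD1 was seen in 0%, 10.3%, 5.88% and 8.96% of the cells with many members and in 1.48%, 2.30%, 2.55% and 3.82% of the others, where 0 of 61 cells in dog 1 allows a share of up to 4.92%. FOXP3 was seen in 1.64%, 4.23%, 1.96% and 7.08% against 1.21%, 2.16%, 2.92% and 2.09%, lower in dog 3 only. GZMB was seen in 0%, 20.2%, 11.8% and 11.8% against 5.99%, 9.75%, 18.8% and 17.2%, and CD8A in 1.64%, 25.8%, 15.7% and 11.8% against 10.2%, 17.1%, 29.0% and 26.3%, both higher in dog 2 only. Their median depth before thinning was 4181 to 4593 UMIs in dogs 2 to 4 and 4011 in dog 1, against 4073 to 4277 and 3844.

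**Figure D3:**
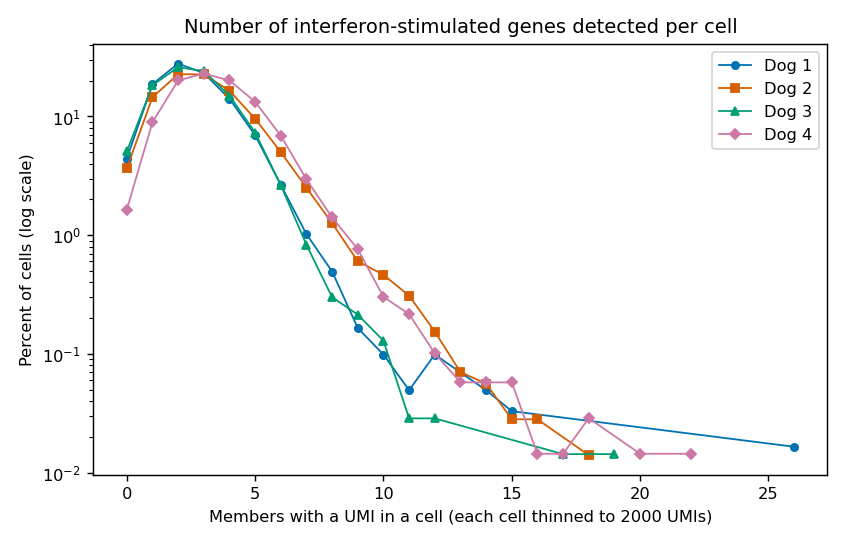
Percent of cells (log scale) by the number of members with a UMI, each cell thinned to 2000 UMIs, 1 line per dog. The curves peak at 2 or 3 members and fall up to 10 members, beyond which few cells are left and the curves are uneven, with dogs 2 and 4 above dogs 1 and 3 from 5 to 11 members.

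Classes of T cells were then compared. A cell was called positive with at least 1 UMI of a gene. CD4+ cells had no CD8A UMI (13247 cells) and CD8A+ cells no CD4 UMI (6427 cells), and each was split by CCR7, which marks naive and central memory cells, GZMB (granzyme B of cytotoxic cells), PDCD1 (the inhibitory receptor PD-1) or FOXP3 (the transcription factor of regulatory T cells). UMIs were summed per dog and class, and the 8 sums of a comparison were compared over all genes by the quasi-likelihood test of edgeR, with Benjamini-Hochberg adjustment and a threshold of 0.05. All adjusted p-values below are from this test. Counts at an unadjusted p under 0.05 are given without the share over all genes and are a description only. The main test has no term for the dog. Since each dog gave both classes, a test with the dog as a block is given beside it, and "blocked" refers to it. The 6 comparisons reuse the same cells in different splits.

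Of the 6 comparisons, those of CD4+ cells with and without FOXP3 or PDCD1 gave the members the largest median differences. Splits of CD4+ cells by GZMB and of CD8A+ cells by PDCD1 were not among the 6 and were not tested. There too OASL (ENSCAFG00000010511) was higher, at 130 ± 20.8 against 49.7 ± 19.5 CPM with and without GZMB. With and without PDCD1 in CD8A+ cells it had 116 ± 51.4 against 63.9 ± 13.9 CPM. SP110 had 366 ± 114 against 457 ± 45.1 CPM and 331 ± 37.5 against 347 ± 14.3 CPM, without 1 direction in all dogs. In CD4+ cells it was lower with GZMB in dogs 2 to 4 but had 525 against 520 CPM in dog 1. In CD8A+ cells it was lower with PDCD1 in dogs 2 and 3, level at 330 CPM in dog 1 and higher in dog 4 (364 against 342 CPM). Of CD4+ cells, 622 had a FOXP3 UMI (97, 191, 192 and 142 in dogs 1 to 4) and 568 a PDCD1 UMI (89, 139, 136 and 204). Only 5, 11, 9 and 18 cells had both. The cells without FOXP3 and those without PDCD1 were largely the same (92.9% to 97.6% shared), so that the comparisons use nearly the same reference and are set side by side.

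OASL (ENSCAFG00000010511) was found at 87.9, 137, 85.4 and 145 CPM in FOXP3+ cells of dogs 1 to 4 and at 26.4, 58.3, 38.5 and 68.8 CPM in FOXP3- cells. The lowest FOXP3+ value was above the highest FOXP3- value, and the difference passed the test (log2 fold change 1.26 ± 0.28 SE, adjusted p = 0.0243). In PDCD1+ cells it was 60.2, 147, 80.9 and 165 CPM against 27.5, 59.6, 40.0 and 65.8 CPM in PDCD1- cells. It was higher in PDCD1+ cells of each dog, but the PDCD1+ value of dog 1 lay below the PDCD1- value of dog 4. The test was missed (1.26 ± 0.31, adjusted p = 0.0541) and passed when blocked (1.21 ± 0.10, adjusted p = 8.42e-11).

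RTP4, an interferon-induced protein that regulates the antiviral response, had 11.7, 22.6, 10.2 and 17.3 CPM in FOXP3+ cells against 4.37, 7.19, 3.38 and 5.62 CPM. The groups did not overlap (1.61 ± 0.32, adjusted p = 0.0175). In PDCD1+ cells it had 4.30, 20.7, 9.94 and 13.1 CPM against 4.65, 7.63, 3.58 and 5.73 CPM. Dog 1 had no higher level there, but RTP4 was seen in 2.25% of its 89 PDCD1+ cells, too few to tell. The test for PDCD1 passed only when blocked (1.17 ± 0.32, adjusted p = 0.00957). The FOXP3+ levels rest on few molecules as well, with RTP4 seen in 4.12%, 11.0%, 5.21% and 7.04% of these cells in dogs 1 to 4.

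XAF1 had 48.9, 94.2, 42.7 and 98.7 CPM in FOXP3+ cells against 31.8, 43.5, 27.1 and 43.7 CPM, with dog 3 of the former below dogs 2 and 4 of the latter (0.98 ± 0.25, adjusted p = 0.0458). PDCD1+ cells had 49.5, 88.5, 36.9 and 95.0 CPM against 31.9, 44.9, 27.9 and 42.9 CPM (0.88 ± 0.26, adjusted p = 0.0886; blocked 0.87 ± 0.13, adjusted p = 8.62e-06). In each dog the positive cells held more XAF1 in both comparisons.

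DTX3L went the other way. It was lower in FOXP3+ cells, with 91.9, 139, 112 and 115 CPM against 163, 173, 168 and 138 CPM (-0.47 ± 0.12, adjusted p = 0.0479). In PDCD1+ cells it had 127, 137, 126 and 110 CPM against 162, 173, 165 and 139 CPM, lower without overlap but short of the threshold (-0.40 ± 0.11, adjusted p = 0.0754; blocked -0.38 ± 0.08, adjusted p = 0.00131). SP110 was lower in PDCD1+ cells, at 335, 317, 321 and 342 CPM against 527, 458, 432 and 425 CPM, again without overlap (-0.52 ± 0.10, adjusted p = 0.0180). In FOXP3+ cells SP110 had 352, 379, 354 and 349 CPM against 527, 457, 431 and 423 CPM (-0.36 ± 0.10, adjusted p = 0.0568; blocked -0.34 ± 0.07, adjusted p = 0.00166).

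Over the list, 4 of 29 members tested passed between FOXP3+ and FOXP3- cells (3 higher, 1 lower), against 5.03% of all genes, and 17 when blocked (14 higher, 3 lower), against 13.1%. Between PDCD1+ and PDCD1- cells 1 of 29 passed (SP110), against 3.13% of all genes, and 13 when blocked (11 higher, 2 lower), against 14.2%. The median log2 fold change of the members was 0.46 and 0.49, while that of all genes was -0.02 in both. Members with the same direction in all 4 dogs were 19 and 16 of 29, against 32.6% and 31.5% of all genes. In each comparison 3 members did not overlap between the classes, against 14.0% of all genes for FOXP3 and 12.8% for PDCD1.

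Higher in FOXP3+ cells when blocked were DHX58, HERC6, IFI44, IFI44L, ISG15, ISG20, MX2, both OASL rows, RTP4, SAMD9L, TRIM25, UBE2L6 and XAF1, and lower were DTX3L, SP110 and OAS3 (-0.56 ± 0.14, adjusted p = 0.00649). Higher in PDCD1+ cells were IFI44, IFI44L, ISG15, ISG20, MX2, OAS1, OASL (ENSCAFG00000010511), RTP4, TRIM25, UBE2L6 and XAF1, and lower were DTX3L and SP110. ISG20 had 199, 270, 223 and 271 CPM in FOXP3+ cells (70.5, 161, 127 and 219 CPM in FOXP3- cells; blocked 0.77 ± 0.11, adjusted p = 8.03e-06). MX2 in PDCD1+ cells had 92.5, 130, 82.3 and 127 CPM (35.4, 68.0, 55.1 and 77.2 CPM in PDCD1- cells; blocked 0.83 ± 0.10, adjusted p = 5.23e-07), and was higher there without overlap. OAS1 passed in PDCD1+ cells (blocked 1.09 ± 0.16, adjusted p = 6.77e-06) and had a value of 0.51 ± 0.18 (adjusted p = 0.0627) in FOXP3+ cells. Whether the FOXP3 and PDCD1 differences differ from each other was not tested.

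ISG15 had the largest difference of the members called when blocked, from few molecules. It had 1.95, 45.2, 15.3 and 45.3 CPM in FOXP3+ cells against 7.29, 11.9, 1.64 and 8.19 CPM (blocked 1.98 ± 0.32, adjusted p = 7.05e-05), with dog 1 in the opposite direction. After thinning its value was -0.16 (adjusted p = 0.987). In PDCD1+ cells it had 32.3, 33.2, 4.26 and 26.3 CPM against 6.24, 13.2, 2.73 and 8.99 CPM, higher in each dog (blocked 1.55 ± 0.25, adjusted p = 2.86e-05).

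Other properties moved with these classes. Cells with FOXP3 had medians of 4633 to 4879 UMIs and those without 3726 to 4072. For PDCD1 these were 4483 to 4703 and 3729 to 4068. MKI67 and TOP2A summed to 78.3 to 246 CPM in FOXP3+ and 22.6 to 36.1 CPM in FOXP3- cells, and to 125 to 245 CPM in PDCD1+ and 21.0 to 36.1 CPM in PDCD1- cells. Of the monocyte list, the sum was 3504 to 4006 CPM in FOXP3+ and 1121 to 2884 CPM in FOXP3- cells, and 2414 to 3879 against 1172 to 2863 CPM for PDCD1. Without S100A8 it was at most 8.13 CPM in any of these classes, and VCAN, CSF1R, S100A12 and FCGR1A were at 0. The B cell list summed to 7449 to 8485 CPM in FOXP3+ and 9278 to 10615 CPM in FOXP3- cells, and to 7495 to 8288 against 9289 to 10633 CPM for PDCD1, nearly all from CD79A. The part of the S100A8 and CD79A rows in the results was not tested.

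Without cells that had an MKI67 or TOP2A UMI, the unblocked test called 0 of 29 members for PDCD1, against 0.0532% of all genes, and 1 for FOXP3, against 1.07%. The blocked test called 12 for PDCD1, against 8.84%, and 10 for FOXP3, against 6.45%, and OASL (ENSCAFG00000010511) stood at 1.38 (adjusted p = 1.91e-14) and 1.13 (adjusted p = 4.66e-08). With each cell thinned to 2000 UMIs, positive classes of 25 to 71 cells per dog were left, and the blocked test called 4 of 26 members for PDCD1, against 2.98% of all genes, and 2 for FOXP3, against 1.34%, while the unblocked test called 0 members for either. OASL then had 1.35 (adjusted p = 6.72e-06) for PDCD1, and 0.68 (adjusted p = 0.343) for FOXP3. ISG20 had 1.02 (adjusted p = 2.42e-08) and 0.13 (adjusted p = 0.921). MX2 had 0.96 (adjusted p = 0.00493) and 0.91 (adjusted p = 0.0240). Thinning also drops shallow cells and assigns the classes anew, and whether these values differ from those before it was not tested.

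Leaving out 1 dog leaves 6 sums, with fewer degrees of freedom, and not each of these calls passed with 3 dogs. Why a call was lost without a given dog was not tested. The log2 fold changes kept their direction, at 1.16 to 1.35 for OASL, 1.54 to 1.64 for RTP4, 0.88 to 1.06 for XAF1 and -0.55 to -0.37 for DTX3L in FOXP3 and -0.60 to -0.44 for SP110 in PDCD1. Without dog 2 none of the 4 FOXP3 calls passed (OASL adjusted p = 0.170, RTP4 0.118, XAF1 0.240 and DTX3L 0.157). OASL also missed without dog 3 (0.0877), RTP4 without dog 4 (0.0696), DTX3L without dog 1 (0.159) or dog 3 (0.219), and XAF1 without dog 1 (0.0766), dog 3 (0.0501) or dog 4 (0.114). The SP110 call for PDCD1 was missed without dog 2 (0.170) or dog 3 (0.141). These p-values are from the unblocked edgeR test.

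**Figure D4:**
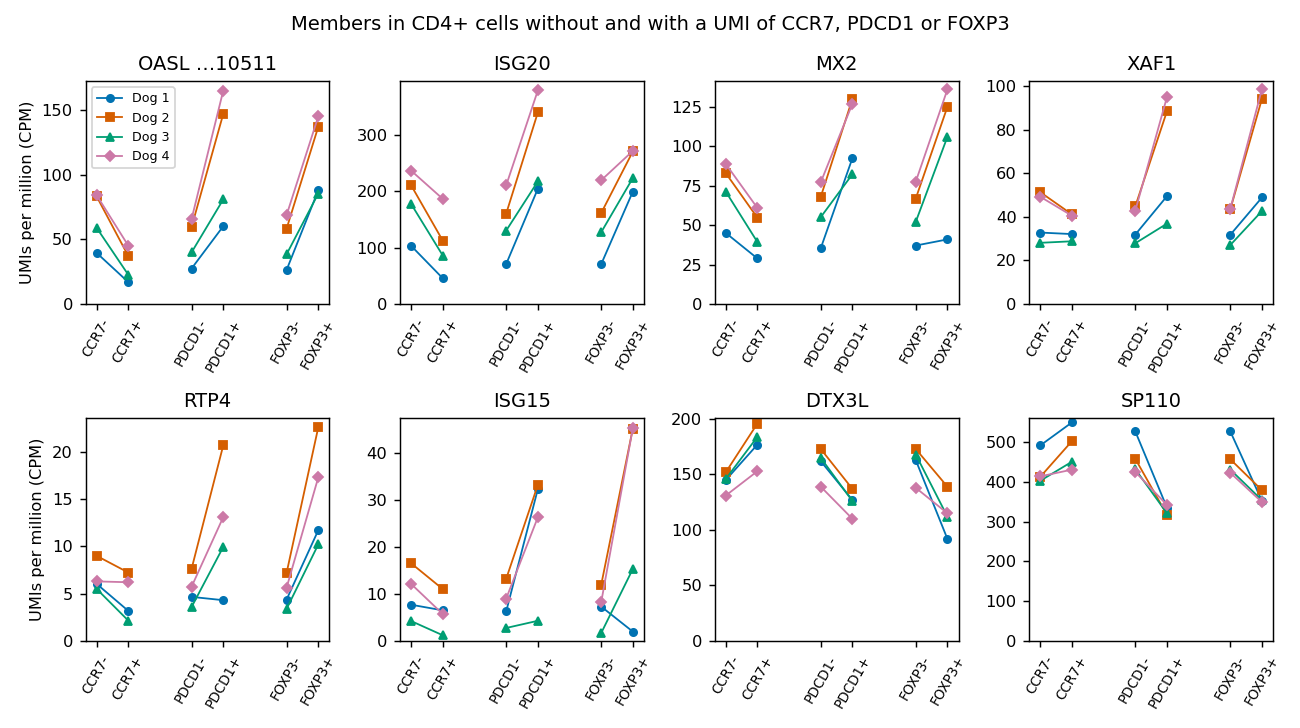
Level (CPM) of 8 members in CD4+ cells without and with a UMI of CCR7, PDCD1 or FOXP3, with a line joining the values of a dog. OASL, ISG20, MX2 and XAF1 lines climb from PDCD1- to PDCD1+ in each dog, while DTX3L and SP110 lines descend, and from CCR7- to CCR7+ the OASL lines descend.

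CD4+ cells with a CCR7 UMI (5304 cells) were compared with those without (7943 cells), at medians of 3841 to 4330 and 3634 to 4065 UMIs. No member passed the unblocked test, which called 0.0620% of all genes (6 of 9678), with 3 of 29 members at an unadjusted p under 0.05. DESeq2 called 1 member, a count given here without the share over all genes and as a description only. When blocked, 12 members passed (3 higher, 9 lower), against 23.1% of all genes. The median member changed by -0.15 and the median gene by 0.01 on the log2 scale, and 16 of 29 members had 1 direction in all dogs, against 39.8% of all genes.

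OASL (ENSCAFG00000010511) had 17.0, 37.2, 22.7 and 45.2 CPM in CCR7+ cells and 39.6, 83.3, 59.0 and 84.2 CPM in CCR7- cells. It was lower in CCR7+ cells of each dog, while the groups overlapped across dogs (unblocked -1.11 ± 0.31, adjusted p = 0.243; blocked -1.11 ± 0.07, adjusted p = 5.54e-08). ISG20 had 45.5, 112, 85.7 and 186 CPM against 103, 210, 177 and 236 CPM (blocked -0.79 ± 0.09, adjusted p = 7.45e-06), and MX2 had 28.9, 54.7, 39.3 and 60.9 CPM against 45.1, 83.0, 71.3 and 88.8 CPM (blocked -0.62 ± 0.06, adjusted p = 2.72e-06). IFI44, ISG15, OAS1, SAMD9L, STAT2 and the second OASL row were lower as well when blocked, with values between -0.19 and -0.66. DTX3L (0.34 ± 0.04, adjusted p = 1.24e-05), PARP9 (0.21 ± 0.07, adjusted p = 0.0396) and SP110 (0.20 ± 0.04, adjusted p = 0.000977) were higher in CCR7+ cells in the blocked test.

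In CD8A+ cells, the 772 with CCR7 (114, 234, 334 and 90 per dog) were compared with 5655 without. Here 3 of 25 members passed, against 9.18% of all genes, and 7 when blocked, against 16.8%. ISG20 was lower in CCR7+ cells, with 80.7, 153, 97.1 and 138 CPM against 203, 252, 157 and 194 CPM without overlap (-0.66 ± 0.17, adjusted p = 0.0329). DTX3L was higher, with 126, 141, 159 and 113 CPM against 70.8, 111, 114 and 93.7 CPM (0.59 ± 0.16, adjusted p = 0.0326). SP110 was higher, with 412, 388, 359 and 439 CPM against 313, 341, 358 and 337 CPM (0.34 ± 0.08, adjusted p = 0.0250), although dog 3 showed nearly no difference. ISG20 and SP110 were the 2 of 25 members that did not overlap between the classes, against 16.5% of all genes. When blocked, IRF1, MX2 and both OASL rows were lower too.

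With 3 dogs the log2 fold changes were -0.74 to -0.57 for ISG20, 0.27 to 0.41 for SP110 and 0.50 to 0.65 for DTX3L. The test was missed by ISG20 without dog 1 (adjusted p = 0.130), dog 3 (0.0722) or dog 4 (0.0684), by SP110 without dog 1 (0.119), dog 2 (0.130) or dog 4 (0.126), and by DTX3L without any 1 dog (0.0556 to 0.110; unblocked edgeR test). Median depth was 4181 to 5061 UMIs in CCR7+ and 3452 to 3856 UMIs in CCR7- cells, and at 2000 UMIs per cell 1 member passed, against 5.50% of all genes. Whether the CCR7 difference differs between CD4+ and CD8A+ cells was tested by an interaction term. No member of 29 passed, against 0.200% of all genes (2.46% when blocked, again without a member), with 0 members at an unadjusted p under 0.05 and 2 when blocked. For OASL (ENSCAFG00000010511) the term was 0.18 ± 0.46, which leaves room for sizeable differences.

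Granzyme B was found in 3931 of the 6427 CD8A+ cells. Between GZMB+ and GZMB- cells 1 of 27 members passed, against 7.42% of all genes, and 4 when blocked, against 18.1%. The OASL row ENSCAFG00000024447 was higher in GZMB+ cells, with 47.5, 57.1, 63.7 and 63.4 CPM against 28.7, 33.9, 36.3 and 52.2 CPM (0.58 ± 0.15, adjusted p = 0.0411). The difference was small in dog 4, and the test was missed without dog 1 (adjusted p = 0.0665), dog 2 (0.192) or dog 3 (0.200), with log2 fold changes of 0.52 to 0.71 at 3 dogs. The other OASL row had 83.9, 123, 59.4 and 70.9 CPM against 51.9, 61.5, 35.7 and 50.2 CPM (0.73 ± 0.22, adjusted p = 0.0700; blocked 0.71 ± 0.09, adjusted p = 8.07e-05). DTX3L (-0.30 ± 0.09, adjusted p = 0.0311) and SP110 (-0.25 ± 0.07, adjusted p = 0.0158) were lower in the blocked test. GZMB+ cells were less deep, with medians of 3313 to 3815 against 4060 to 4240 UMIs, and held 53.0 to 88.4 CPM of MKI67 and TOP2A against 13.8 to 37.8 CPM. After thinning no member passed, against 5.71% of all genes, and without cells with an MKI67 or TOP2A UMI 1 member passed, against 7.33%. Whether reads were shared between the 2 OASL genes was not tested, and each is reported under its identifier.

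CD4+ and CD8A+ cells differed in 3 of 30 members, against 14.1% of all genes, and in 10 when blocked, against 27.1%. The 3 were higher in CD4+ cells. DTX3L had 161, 171, 163 and 137 CPM in CD4+ and 80.3, 117, 122 and 94.9 CPM in CD8A+ cells (0.61 ± 0.13, adjusted p = 0.0129). Its partner PARP9 had 34.3, 32.6, 25.6 and 27.3 CPM against 20.9, 21.7, 19.2 and 17.8 CPM (0.61 ± 0.12, adjusted p = 0.00983). SP110 had 520, 452, 425 and 419 CPM against 330, 350, 358 and 344 CPM (0.41 ± 0.09, adjusted p = 0.0135). None of the 3 overlapped between classes, as was the case for 18.9% of all genes, and each missed the test without dog 2 (adjusted p = 0.0612, 0.0567 and 0.0849). At 3 dogs the log2 fold changes were 0.50 to 0.70 for DTX3L, 0.55 to 0.68 for PARP9 and 0.30 to 0.47 for SP110.

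When blocked, CXCL10, IFI44L, RTP4 and SAMD9L were also higher in CD4+ cells, and HERC6, IRF1 and the OASL row ENSCAFG00000024447 higher in CD8A+ cells. The CXCL10 call rests on few cells. It was seen in 0.793%, 0.882%, 0.920% and 2.81% of CD4+ cells of dogs 1 to 4. In CD8A+ cells these shares were 0.145%, 1.05%, 0.132% and 1.82%, higher than in CD4+ cells in dog 2. IRF1 had 246, 252, 215 and 497 CPM in CD4+ and 298, 305, 240 and 732 CPM in CD8A+ cells (blocked -0.31 ± 0.07, adjusted p = 0.00915). MX2 and OAS1 had values of 0.17 ± 0.23 and 0.02 ± 0.43 (adjusted p = 0.697 and 0.992), and neither passed in either test.

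**Figure D5:**
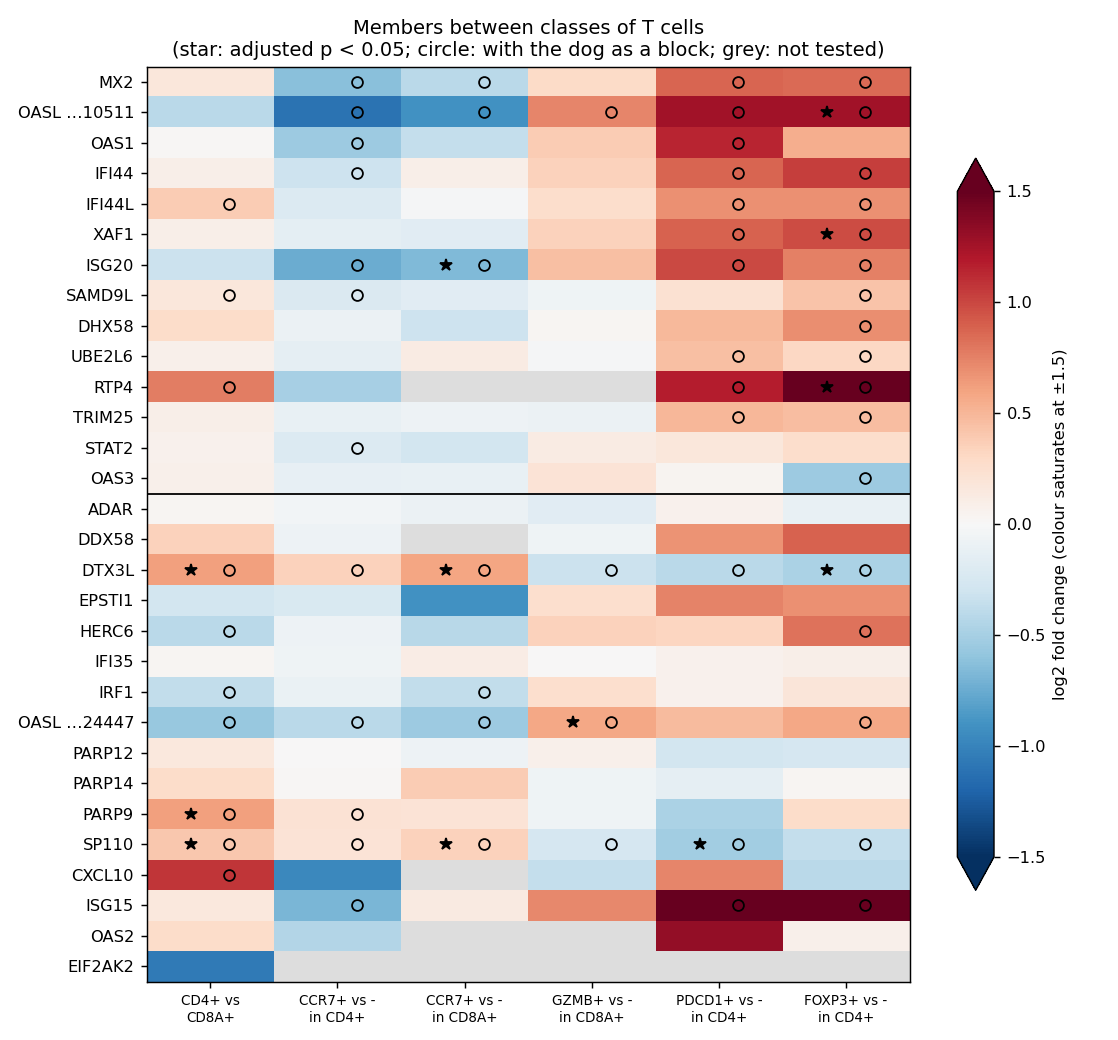
Log2 fold change (colour) of 30 member rows in the 6 comparisons, unblocked, with a star for adjusted p under 0.05 and a circle for the same with the dog as a block. Above the line stand the 14 members of the linked group, mostly red for PDCD1 and FOXP3 and blue for CCR7. DTX3L and SP110 have the opposite colours. The group was drawn from the same cells.

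The members' summed share was 19.9 ± 3.31 UMIs per 10000 in CD4+ and 19.1 ± 3.48 in CD8A+ cells (mean difference 0.714 ± 0.735, higher in 3 of 4 dogs), and without SP110 the difference was -0.37. CCR7+ cells lay below CCR7- cells in 4 of 4 dogs, by -1.80 ± 1.08 in CD4+ and -2.30 ± 0.861 in CD8A+ cells. GZMB+ cells lay above GZMB- cells by 1.74 ± 1.40, PDCD1+ above PDCD1- cells by 3.59 ± 2.18 and FOXP3+ above FOXP3- cells by 3.43 ± 1.94, each in 4 of 4 dogs. The SD of these differences is that over the 4 paired values. In CD8A+ cells, 530 cells with PDCD1 had 18.0, 28.1, 17.9 and 24.7 UMIs per 10000 in dogs 1 to 4, against 16.5, 19.9, 15.8 and 23.0 in those without. CD4+ cells with GZMB (32, 103, 74 and 96 cells) had 20.2, 22.5, 18.2 and 28.4, against 17.5, 20.4, 17.1 and 24.1. These shares were higher in the positive cells of each dog and were not tested.

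CXCL10, a chemokine that attracts CXCR3+ cells, was carried by few cells. It was seen in 49, 78, 36 and 206 cells of dogs 1 to 4, and the 10 richest held 64.2%, 50.0%, 66.1% and 32.8% of its UMIs. CD3E was found in 100%, 92.3%, 100% and 97.1% of these cells and in 96.0%, 94.4%, 95.1% and 95.0% of the others.

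The rest of the pathway was read from lists of receptors and signalling genes (22 of 29 found) and interferons (3 of 4). A further list held genes taken as interferon-stimulated (47 of 61), called targets below. Among them is IFITM10, a gene of the IFITM family, and whether interferon induces it was not tested. Of the interferons, IFNB1 and IFNK had 0 UMIs in every dog, which allows up to 0.0856 to 0.114 CPM per dog, and IFNG had 5.72, 7.05, 5.15 and 17.7 CPM, highest in dog 4. GBP1, a guanylate-binding protein induced by IFN-γ, had 187, 198, 236 and 354 CPM. It was highest in dog 4, as was IFNG. Dog 4 was also the highest for 14 of the 31 member rows with at least 3 UMIs in every dog, IRF1 among them. The cause of the levels in dog 4 was not tested.

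Between CD4+ and CD8A+ cells 4 of 18 signalling genes and 6 of 46 further targets passed, against 14.1% of all genes. Higher in CD4+ cells were the kinases JAK2 and TBK1, the dNTP hydrolase SAMHD1 (2.50 ± 0.32, adjusted p = 0.000876), SP140, TRIM22 and ZBP1, and higher in CD8A+ cells were the transcription factors IRF8 (-5.41 ± 0.67, adjusted p = 0.000744) and STAT4, IFITM10 and LGALS9. Between CCR7+ and CCR7- CD8A+ cells 1 of 17 signalling genes (JAK1, higher) and 5 of 44 targets passed, against 9.18% of all genes, with SP140, TRIM22 (1.58 ± 0.19, adjusted p = 0.000409) and ZBP1 higher and BST2 and IFITM10 lower. In CD4+ cells none of 17 and 46 passed for CCR7, against 0.0620% of all genes, with 3 in each list at an unadjusted p under 0.05. When blocked 6 and 21 passed, against 23.1%, and 5 and 17 of them were lower in CCR7+ cells.

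For GZMB, BST2 (0.97 ± 0.23, adjusted p = 0.0287) and IFITM10 were higher and JAK2, PIAS1 and TRIM22 lower in GZMB+ cells, 2 of 17 signalling genes and 3 of 45 targets, against 7.42% of all genes. For PDCD1, IRF3, STING1, LGALS9 (1.02 ± 0.18, adjusted p = 0.0123) and TRIM14 were higher, 2 of 17 signalling genes and 2 of 45 targets, against 3.13% of all genes. For FOXP3, IRF3 (0.59 ± 0.12, adjusted p = 0.0175), IRF4, LGALS9 (1.04 ± 0.20, adjusted p = 0.0140) and TRIM14 were higher, again 2 of 17 and 2 of 45, against 5.03%. LGALS9, the gene outside the list that varied most closely with the members over cells, passed in both. Its co-variation and these calls come from the same cells and are not independent.

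Without any 1 dog, these pathway calls still passed for IFITM10, IRF8, SAMHD1, SP140 and ZBP1 between CD4+ and CD8A+ cells, for TRIM22 and IFITM10 between CCR7 classes of CD8A+ cells and for IFITM10 between GZMB classes. The others were lost without at least 1 dog, among them LGALS9 for PDCD1 without dog 2 (adjusted p = 0.0845) or dog 3 (0.116) and for FOXP3 without dog 2 (0.106) or dog 3 (0.0641; unblocked edgeR test).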

How the data were processed

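Counts of UMIs, not normalized, were deposited by the authors for each cell barcode; Cell Ranger 5.0.1 is named in their processing notes and CanFam 3.1 in their methods. The gene list of dog 1 (27980 lines) did not match its matrix and was replaced by that of dog 2, with which log gene totals correlated at 0.989 to 0.991. Cells with 500 to 20000 UMIs and at most 10% from 13 mitochondrial genes were kept. Doublets were gated out at sorting. Cells captured together in a droplet after sorting were not looked for, and none were removed here. Genomic position, sequence and strand of counting were not analysed here.

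Members and lists were chosen with earlier results of these data known. UMIs summed per dog and class were tested with edgeR 4.0.16 (TMM, filterByExpr, quasi-likelihood test). The SE of a log2 fold change was taken as its absolute value over the square root of the F statistic of this test. It is not a spread between dogs. Same-dog sums of both classes come from the same animal and deviated together (correlations 0.242 to 0.770), so the blocked test is printed too. The test was also run on counts simulated from the CD4+ and CD8A+ sums only, which says nothing about the smaller classes or sparse members. Alternatives were RLE, DESeq2 1.42.0, no filter, thinning, cells of at least 2000 UMIs and leaving out each dog. Leaving out cells with MKI67 or TOP2A, block with thinning or without these cells, and pairs within classes were added after seeing the data. Residuals were clipped at ±10. Described in full were members called without the block, the 8 most abundant and those of the 10 closest pairs; other genes were the 15 closest to the members' sum and the listed pathway genes called.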

Additional observations from a re-analysis of the deposited data

Results flagged for a closer look

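In 9 of 91 sets of values of a member in 4 dogs (all kept, CD4+ or CD8A+ cells), 1 dog lay so far from the nearest other that Dixon's 95% criterion was passed. Chance alone flags about 1 in 20 sets, and the sets overlap in cells.

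In dog 4, IRF1 was at 577 CPM in all kept cells, 497 CPM in CD4+ and 732 CPM in CD8A+ cells, against 224 to 274, 215 to 252 and 240 to 305 CPM in the other dogs. UBE2L6 in dog 4 was at 160 CPM in all kept and 159 CPM in CD4+ cells, and CXCL10 at 26.7 and 30.2 CPM. In dog 2, ISG15 was at 21.9 CPM and DHX58 at 20.3 CPM in CD8A+ cells.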

How the results depend on the processing

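Single members gave 748 values under the alternatives, of which 599 kept direction and side of the threshold, 48 lost it, 98 gained it and 3 reversed. These 3 were ISG15 for FOXP3 after thinning (-0.23, and -0.16 with the block) and the OASL row ENSCAFG00000024447 for FOXP3 after thinning with the block (-0.04). The cause of these changes was not tested. The 748 values are those of members called with or without the block, and the blocked test is itself among the alternatives. Gains under the block thus follow in part from how the members were chosen. Only a member called in the main test could lose its call, so that 48 of 748 is not a share of calls lost. Many of the 599 values are of members that stayed uncalled. These counts are a description only.

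With the dog as a block, members called were 10 for CD4+ against CD8A+ cells, 12 and 7 for CCR7 in CD4+ and CD8A+ cells, 4 for GZMB, 13 for PDCD1 and 17 for FOXP3, and genes called were 2744, 2234, 1384, 1620, 1358 and 1253, with 246 for the interaction. With DESeq2, members were 1 for CCR7 in CD4+ cells, 2 for GZMB and 8 for PDCD1, and genes 107 for CCR7 in CD4+ cells, 636 for PDCD1, 743 for FOXP3 and 63 for the interaction. Without a filter, members were 2 for GZMB and 3 for PDCD1, and genes 10 for CCR7 in CD4+ cells and 31 for the interaction. After thinning, members were 1 for CCR7 in CD8A+ cells and 0 for GZMB, PDCD1 and FOXP3, and genes 349, 432, 2 and 20, with 3 for the interaction. With thinning and block, 4 members passed for PDCD1, and 2 members and 107 genes for FOXP3. In cells of at least 2000 UMIs, 2 members passed for FOXP3. Without cells with MKI67 or TOP2A, 0 members and 5 genes passed for PDCD1 and 1 and 101 for FOXP3, and with the block 12 and 831 for PDCD1 and 10 members for FOXP3. Where a count of members stands without a count of genes, no share over all genes is given here. Such a count is a description only.

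Without the most abundant member, the share was 15.4 per 10000 UMIs and its difference between CD4+ and CD8A+ cells -0.37. Correlated pairs were 31 with log-normalized values, 12 after thinning and 8 in CD8A+ cells alone. The share over all pairs of genes was taken in the main setting only.

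Leaving out each dog in turn gave 1 to 3 members and 706 to 1270 genes for CD4+ against CD8A+ cells, 0 members and 1 to 65 genes for CCR7 in CD4+ cells, 0 to 2 and 266 to 561 in CD8A+ cells, 0 to 1 and 247 to 522 for GZMB, 0 to 4 and 10 to 409 for PDCD1, 0 to 4 and 43 to 328 for FOXP3, 0 to 9 genes for the interaction, 54 to 87 pairs and a share of 18.3 to 20.8. By their rule pairs cannot be lost when a dog is left out, so that their range is no check. Depth limits the FOXP3+ and PDCD1+ classes, which hold 25 to 71 cells per dog after thinning.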
